A study of Homo sapiens with 3 samples.

Results

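The transcripts described here encode chromatin remodelers and histone methylation enzymes. The rule that chose them reads gene names and no measured value, and takes genes called CHD1 to CHD9 or carrying a symbol that starts with KDM, KMT, SMARC or ARID, among the genes with a cluster. Of 9754 gene names with at least 1 cluster in any library, 49 met this rule, and they held 905 of 87230 clusters in wild-type replicate 1 (WT rep 1), 282 of 27155 in replicate 2 (WT rep 2) and 12 of 842 in the MATR3 knockout (KO) library. RefSeq lists 60 protein-coding genes under these names, so 11 had no cluster under that name.

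The study mapped RNA contacts of MATR3, a nuclear RNA-binding protein, by PAR-CLIP in HAP1, a human cell line that is near-haploid and descends from KBM-7, a chronic myeloid leukaemia line. PAR-CLIP crosslinks a protein to RNA that carries 4-thiouridine, and the crosslinked base is then read as C in place of T. There were 3 libraries of HAP1 cells: 2 from the purchased WT line, which the design calls independent replicates, and 1 from a MATR3 KO line of the same supplier, which serves as the negative control. The labels do not say whether the KO line is 1 clone, and they describe recovery on anti-FLAG beads while recording no tag on MATR3. A cluster is a stretch of overlapping reads with T-to-C changes, called in each library separately. With 2 WT libraries and 1 KO library an exact permutation test cannot give a p-value below 0.333, so no test between genotypes was made. MATR3, the targeted gene, held 53 clusters in WT rep 1, 26 in WT rep 2 and 0 in KO. Clusters report recovered RNA, not transcript levels, and a gene with more transcript can give more clusters at the same binding.

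Chromatin remodelers use ATP to slide, evict or restructure nucleosomes. The SWI/SNF complexes are built around SMARCA4 or SMARCA2, the ISWI complexes around SMARCA5 or SMARCA1, and the CHD family pairs chromodomains with a helicase-like motor. KMT2 proteins add methyl groups to a lysine on the tail of histone H3, most often at promoters and enhancers, and KDM proteins remove methyl groups from histone lysines. Many of these genes have long introns, and MATR3 is known to bind pyrimidine-rich RNA, much of it in introns.

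The strongest sites shared by the WT libraries are shown first, because the gene-by-gene results turn on them. They are the overlapping WT pairs deepest by the geometric mean of their reads, at most 1 per gene, and each line gives the stretch common to both clusters as deposited, on the RNA strand, 5′ to 3′. Capitals mark ATCTT and TTCTT, pyrimidine words searched on the cluster's own strand with overlap allowed. All coordinates are hg38.
ARID1A, chr1:26726508-26726543, plus strand: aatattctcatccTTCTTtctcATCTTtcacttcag
CHD2, chr15:92957221-92957255, plus strand: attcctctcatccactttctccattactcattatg
KDM6A, chrX:44906926-44906960, plus strand: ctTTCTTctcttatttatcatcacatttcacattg
KMT2C, chr7:152152158-152152189, minus strand: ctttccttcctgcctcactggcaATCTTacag
SMARCA4, chr19:11038258-11038294, plus strand: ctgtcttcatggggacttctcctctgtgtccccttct
KMT2E, chr7:105046326-105046355, plus strand: cctttaagtctaaattcagactccttttaa
All 6 lie in introns. Read numbers of printed sites, here and below, are those of the whole clusters, which can be wider than the printed stretch. In WT rep 1 the ARID1A cluster was 72 nt long and the CHD2 cluster 70 nt, for printed stretches of 36 and 35 nt. The ARID1A site held 1070 reads in WT rep 1 and 916 in WT rep 2, the CHD2 site 263 and 433, and the KDM6A site 280 and 308. The KMT2C site held 123 and 168 reads, the SMARCA4 site 96 and 210, and the KMT2E site 136 and 123. At 4 of the 6 sites WT rep 2 had more reads than WT rep 1, although that library had fewer clusters in all. The KO library had no cluster overlapping any of the 6. Such overlap was rare over all clusters too, at 0.0504% in WT rep 1 and 0.0884% in WT rep 2.

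The chromatin genes took the same share of clusters in both WT libraries, 1.04% in WT rep 1 (95% Wilson interval 0.972% to 1.11%) and 1.04% in WT rep 2 (0.925% to 1.17%). Their share in KO was 1.43% (0.817% to 2.47%), which includes both WT values. Their share of reads was 1.08%, 1.03% and 1.27% in WT rep 1, WT rep 2 and KO. The median cluster in these genes had 20 reads in WT rep 1, 36 in WT rep 2 and 179 in KO, against 20, 39 and 243 over all clusters. The libraries therefore differ in both number and depth of clusters, and counts below are set beside the background of the same library.

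Of the 49 genes, 39 (79.6%) had a cluster in both WT libraries, against 56.9% of the 9706 genes with a cluster in either. At least 3 clusters in each WT library were found for 27 (55.1%), against a background of 28%. A cluster in WT rep 1 alone was found for 9 (18.4%, background 37.7%), and 1 gene, KDM6B, had a cluster in WT rep 2 alone (2.04%, background 5.33%). WT rep 1 had more clusters in 47 genes, WT rep 2 in 1, and 1 gene, KMT2D, had 1 cluster in each. Across the 49 genes the cluster numbers of the WT libraries had a Spearman correlation of 0.922, against 0.720 over 9119 genes with a RefSeq length. Points of both sets share gene length and the same pair of libraries.

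**Figure D1:**
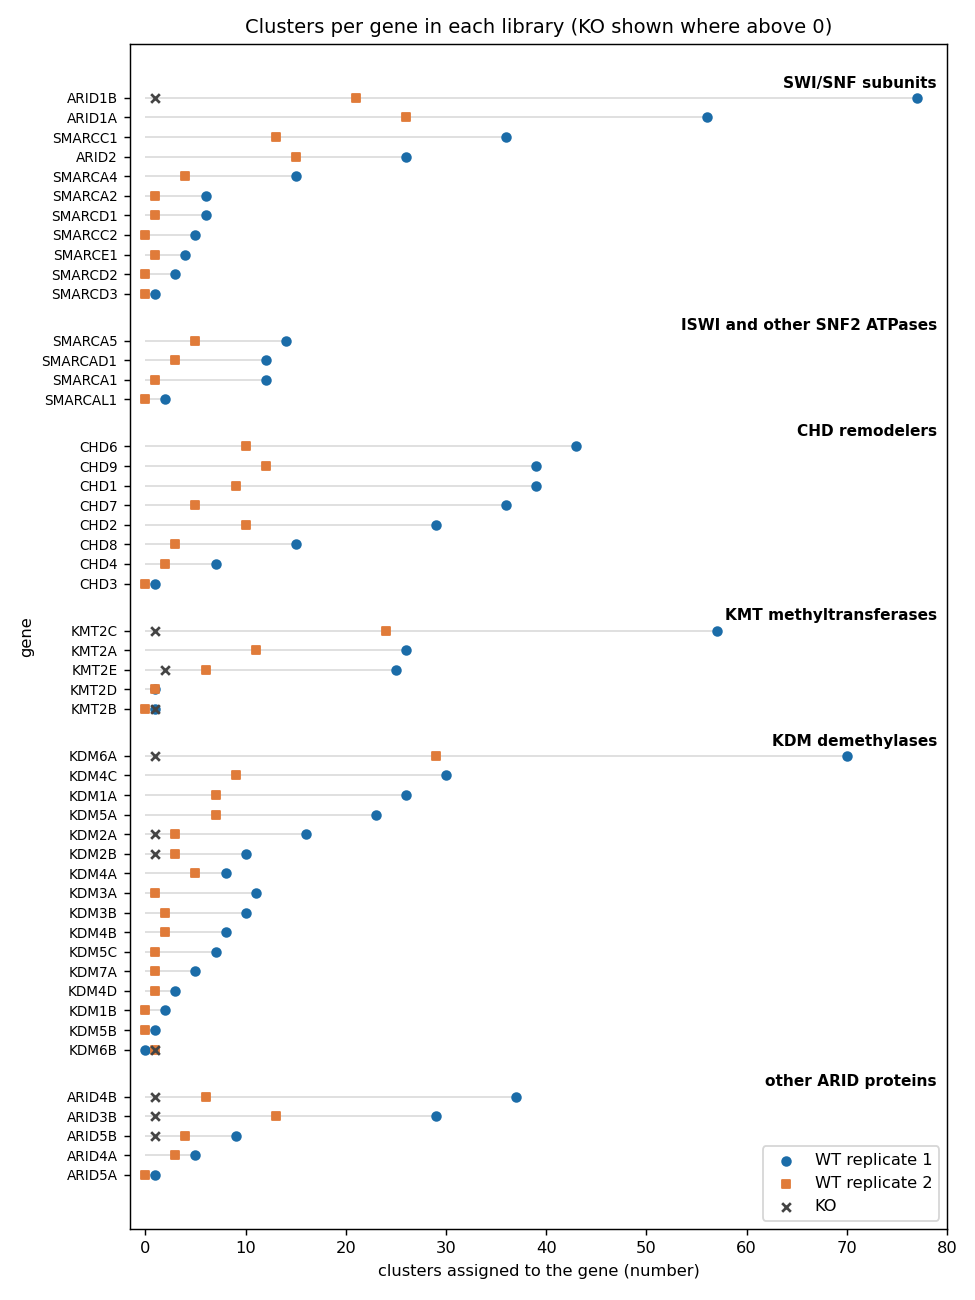
Number of clusters assigned to each of the 49 genes (rows, grouped by role) in WT rep 1 (circles), WT rep 2 (squares) and KO (crosses, drawn only where above 0). ARID1B, KDM6A, KMT2C and ARID1A stand out in both WT libraries, and no gene has more than 2 KO clusters.

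Gene length moved with these counts. The 60 protein-coding genes under the rule had a median length of 70.7 kb, against 24.1 kb over 20033 protein-coding RefSeq genes. Counted over all these genes, including those without clusters and with 1 gene, KMT5B, found under its older name SUV420H1, 40 of 60 (66.7%) had a cluster in both WT libraries, against 26.2%. Under 50 kb the share was 7 of 21 (33.3%, background 15%), and from 50 to 100 kb it was 14 of 20 (background 44.3%). All 13 genes of 100 to 200 kb and all 6 of 200 kb or more had clusters in both, against 55.7% and 57%. The chromatin genes were above the background in every length class, with 6 to 21 genes per class. Transcript level, which also differs between genes, was not measured here, and its part was not tested.

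The 9 genes seen under their own names in WT rep 1 alone were sparsely covered. SMARCC2 had 5 clusters, SMARCD2 had 3, KDM1B and SMARCAL1 had 2 each, and ARID5A, CHD3, KDM5B, KMT2B and SMARCD3 had 1 each. Of the 11 genes without a cluster under the current name, KMT5A, KMT5B and KMT5C stood in the files under the older names SETD8, SUV420H1 and SUV420H2. These had 4, 16 and 1 clusters in WT rep 1 and 0, 4 and 0 in WT rep 2. The other 8 were ARID3A, ARID3C, CHD5, KDM4E, KDM4F, KDM5D, KDM8 and SMARCB1. Only clusters that passed the authors' minimum are listed, so a gene without a cluster is not shown to be unbound.

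**Figure D2:**
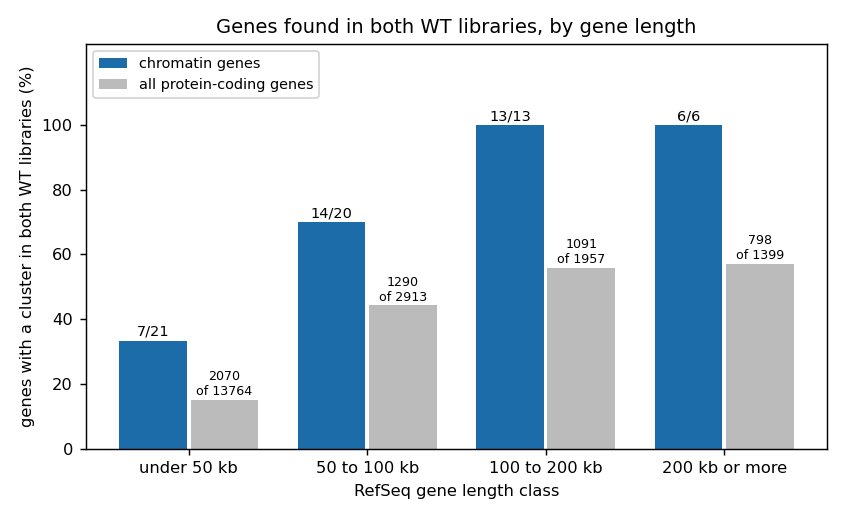
Share of protein-coding genes with a cluster in both WT libraries (y axis, percent) by RefSeq gene length class (x axis), for the chromatin genes (blue) and all protein-coding genes (grey), with the numbers of genes above the bars. The blue bar is higher in each of the 4 classes, from 33.3% against 15% under 50 kb to 6 of 6 against 57% at 200 kb or more.

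Per 100 kb of gene, the median over the 49 genes was 14.8 clusters in WT rep 1 and 3.87 in WT rep 2, against 9.45 and 1.93 over all genes with a length. Among genes found in both WT libraries the medians came closer, at 17.7 and 4.38 for the 39 chromatin genes and 12.7 and 4.29 for all. Density had little relation to length among the 49 genes (Spearman 0.07 in WT rep 1), whereas over all genes longer genes had fewer clusters per kb (-0.38). Among genes found in both WT libraries both values were negative, -0.18 for the 39 chromatin genes and -0.48 for all. Only genes with at least 1 cluster enter, and the part of this limit in these values was not tested.

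**Figure D3:**
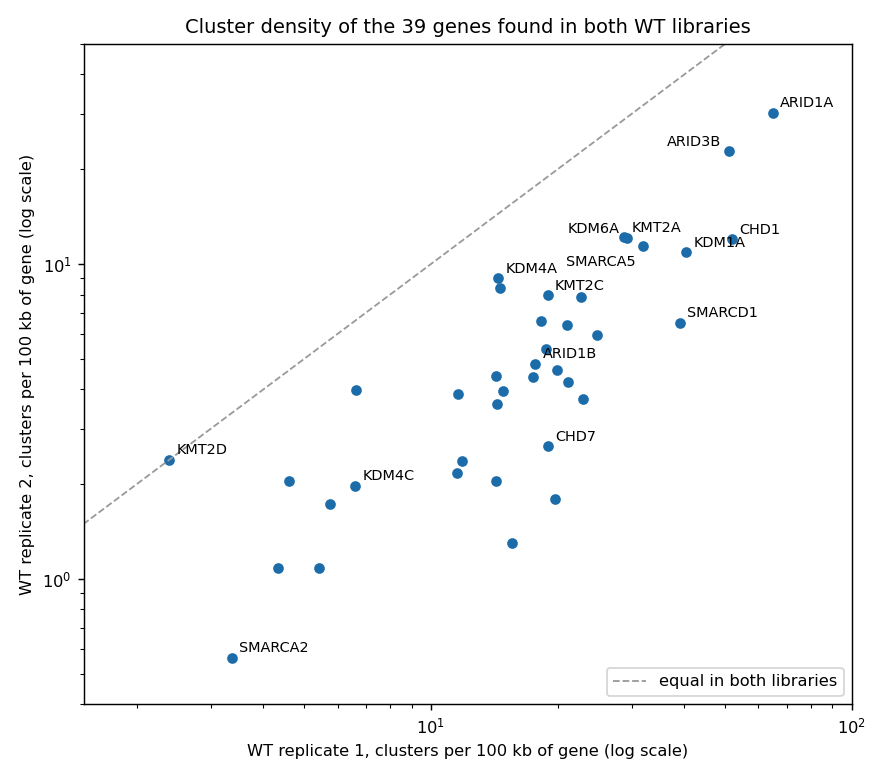
Clusters per 100 kb of gene in WT rep 1 (x axis) and WT rep 2 (y axis), both on log scales, for the 39 genes with clusters in both; the dashed line marks equal values. ARID1A lies highest on both axes at 65.0 and 30.2, SMARCA2 lowest in WT rep 2 at 0.561, and all genes but KMT2D lie below the line.

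Among SWI/SNF genes, 11 of 12 had clusters and 8 had them in both WT libraries, with 235 clusters in WT rep 1 and 82 in WT rep 2. ARID1A, which encodes the subunit that defines the canonical BAF form of the complex and is often mutated in cancer, had 56 clusters and 4511 reads in WT rep 1, 26 clusters and 2099 reads in WT rep 2, and none in KO. These were 65.0 and 30.2 clusters per 100 kb, the highest density of the 49 genes in both WT libraries. ARID1A alone gave 15.7% and 13.1% of the reads of all 49 genes, and by reads it ranked 12 of 9189 genes in WT rep 1 and 34 of 6043 in WT rep 2.

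Within ARID1A the clusters were gathered towards the start of the gene. Of 56 clusters in WT rep 1, 50 lay within 50 kb of the start of the 86.1 kb gene, and so did 24 of 26 in WT rep 2. The median relative position was 23.7% and 20.3% of the gene's length, against 45.2% and 43.6% over clusters of all 49 genes. Of its WT rep 2 clusters, 12 overlapped a WT rep 1 cluster. Its next deepest shared sites are printed because they show how much the sequence under an ARID1A cluster varied.
ARID1A, chr1:26700234-26700264, plus strand: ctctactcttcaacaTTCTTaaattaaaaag
ARID1A, chr1:26713747-26713777, plus strand: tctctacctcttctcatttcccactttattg
ARID1A, chr1:26719106-26719142, plus strand: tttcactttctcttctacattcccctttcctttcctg
The first held 583 and 221 reads in WT rep 1 and WT rep 2, the second 503 and 43, and the third 129 and 161. In each of these 3 the last base is the only G, and 1 holds a TTCTT, the one with a run of A near its end.

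ARID1B, the alternative to ARID1A in the same complexes, had the most clusters of any of the 49 genes in WT rep 1, 77 with 1745 reads, and 21 with 1210 reads in WT rep 2, with 1 in KO. It is 435 kb long, and its density of 17.7 and 4.83 per 100 kb was below that of ARID1A in both libraries. ARID2, a subunit of the PBAF form, had 26 and 15 clusters with 906 and 849 reads. SMARCC1, a core scaffold subunit, had 36 and 13 clusters with 1235 and 679 reads, and SMARCA4, a motor subunit, had 15 and 4 clusters with 566 and 351 reads. The other motor gene, SMARCA2, had 6 clusters and 1 cluster, a density of 3.37 and 0.561 per 100 kb against 14.8 and 3.95 for SMARCA4. SMARCC2, the paralogue of SMARCC1, had 5 clusters with 142 reads in WT rep 1 and none under its name in WT rep 2. In WT rep 2, 1 cluster assigned to another name lay inside the SMARCC2 interval on the same strand. SMARCD2, an accessory subunit, had 3 clusters with 51 reads in WT rep 1 and none in WT rep 2. SWI/SNF genes with a cluster thus ranged from 77 clusters down to 1 in WT rep 1, and per 100 kb from 65.0 down to 2.61. SMARCB1, a core subunit, had no cluster under that name.

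The ISWI and other SNF2-type motor genes had 40 and 9 clusters over 4 genes. SMARCA5, the main ISWI motor, had 14 and 5 clusters with 455 and 228 reads, or 32.0 and 11.4 per 100 kb in a gene of 43.8 kb. SMARCAD1, a remodeler linked to heterochromatin upkeep and DNA end resection, had 12 and 3 clusters with 355 and 131 reads. SMARCA1 had 12 clusters and 1, and SMARCAL1, an annealing helicase, had 2 and 0. SMARCA5 was the only one of the 4 genes with overlapping WT clusters, which 43.4% of all genes found in both WT libraries had.

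Of the 9 CHD genes, 7 had clusters in both WT libraries and none had a KO cluster, which 5.88% of all genes with a WT cluster had. CHD1, which binds methylated histone H3 on active genes, had 39 and 9 clusters with 1065 and 181 reads, and CHD2, its close relative, had 29 and 10 clusters with 1234 and 639 reads. The clusters at a single site, printed above, gave 21.3% of the CHD2 reads in WT rep 1 and 67.8% in WT rep 2. CHD9 had 39 and 12 clusters with 1124 and 584 reads, CHD6 had 43 and 10 with 835 and 478, and CHD7, the gene mutated in CHARGE syndrome, had 36 and 5 with 908 and 238. CHD8 had 15 and 3 clusters and CHD4, the motor of the NuRD complex, 7 and 2. CHD3, the other NuRD motor, had 1 cluster of 6 reads in WT rep 1 alone, and CHD5 had none.

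The KMT genes had 110 and 42 clusters, of which KMT2C held 57 and 24. KMT2C, an enhancer H3 methyltransferase, had 1583 and 1555 reads, nearly equal between libraries that otherwise differ in depth. KMT2A, the MLL gene rearranged in leukaemia, had 26 and 11 clusters with 899 and 492 reads, and its clusters lay near the start, with a median position of 18.8% and 11.9% of the gene. KMT2E, a family member with no established methyltransferase activity, had 25 and 6 clusters with 906 and 299 reads. KMT2D, the paralogue of KMT2C, had 1 cluster in each WT library with 25 and 90 reads, both in the 3′ untranslated region (3′UTR), and other-named clusters lay inside its interval on the same strand, 4 in WT rep 1 and 2 in WT rep 2. KMT2B had 1 cluster of 13 reads in WT rep 1. The KMT2C and KMT2D genes are 301 kb and 41.8 kb long. Per 100 kb they stood at 18.9 and 7.97 clusters for KMT2C against 2.39 and 2.39 for KMT2D. With the other-named clusters in its interval counted in, KMT2D held 5 and 3 clusters, or 12.0 and 7.17 per 100 kb, so the gap between the paralogues per length depends on which gene those clusters belong to.

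The KDM genes had 230 and 72 clusters over 16 genes, 13 of them in both WT libraries. KDM6A, which removes methyl groups from histone H3 and works in the KMT2C complex, had 70 and 29 clusters with 2454 and 2201 reads, and 8 of its WT rep 2 clusters overlapped WT rep 1. KDM1A, the flavin-dependent demethylase LSD1, had 26 and 7 clusters with 855 and 273 reads. Its density, 40.5 and 10.9 per 100 kb, was among the 5 highest by the geometric mean of the WT libraries. None of its clusters overlapped between the libraries, where 43.4% of all genes found in both had an overlapping cluster. KDM4C had 30 and 9 clusters with 627 and 544 reads and KDM5A 23 and 7 with 539 and 422; they act on different lysines of histone H3. In WT rep 2, 4 of the 7 KDM5A clusters and 0 of the 9 KDM4C clusters overlapped WT rep 1, against 19.5% of all clusters. KDM4A had 8 and 5 clusters with 226 and 211 reads. KDM2A and KDM2B, demethylases that bind unmethylated CpG DNA, had 16 and 3 clusters and 10 and 3 clusters in that order. KDM3A, KDM3B, KDM4B, KDM4D, KDM5C and KDM7A had 3 to 11 clusters in WT rep 1 and 1 or 2 in WT rep 2.
KDM6A, chrX:44906444-44906480, plus strand: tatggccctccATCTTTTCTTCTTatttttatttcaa
KDM6A, chrX:44979422-44979452, plus strand: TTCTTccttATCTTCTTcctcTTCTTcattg
These are the other deepest shared sites of KDM6A, printed because the words run into each other there. The first held 42 and 389 reads in WT rep 1 and WT rep 2 and the second 265 and 44, so each was deep in a different library.

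The ARID genes outside SWI/SNF had 81 and 26 clusters. ARID3B, which encodes a DNA-binding protein with a preference for AT-rich sites, had 29 and 13 clusters with 947 and 472 reads in a gene of 56.9 kb, a density of 51.0 and 22.8 per 100 kb that was second to ARID1A in WT rep 2. ARID4B, a subunit of SIN3 deacetylase complexes, had 37 and 6 clusters with 1186 and 353 reads, and its relative ARID4A had 5 and 3 with 134 and 185. ARID5B, a coactivator that works with PHF2, had 9 and 4 clusters with 204 and 139 reads.

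To compare reads per gene between libraries of unequal depth, each gene's share of all cluster reads was taken, for the 27 genes with at least 3 clusters in each WT library. The ratio of WT rep 2 to WT rep 1 had a median of 0.937 and ranged from 0.291 to 2.36, against a median of 1.12 over 2719 genes. It was at least 2-fold higher for 1 gene, ARID4A (3.70%, background 19.6%), and at least 2-fold lower for 2, CHD1 and CHD7 (7.41%, background 13.6%). After CHD1 at 0.291 and CHD7 at 0.449, the lowest ratios were 0.510 for ARID4B, 0.540 for KDM2A and 0.547 for KDM1A. After ARID4A at 2.36, the highest were 1.68 for KMT2C, 1.60 for ARID2 and KDM4A, and 1.54 for KDM6A. With 1 ratio per gene no error can be given for any of them.

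The same genes did not always mean the same sites. Of the 282 clusters in WT rep 2, 66 (23.4%, 18.8% to 28.7%) shared at least 1 nt and the strand with a WT rep 1 cluster, against 19.5% of all clusters. From the other side, 65 of 905 WT rep 1 clusters did so (7.18%, 5.67% to 9.05%), against 6%. Without ARID1A, left out after its overlaps were seen, the first share was 54 of 256 (21.1%, 16.5% to 26.5%). All 3 intervals include the value over all clusters of the same library. The WT rep 2 share depended on the settings: it was 38.8% with at least 3 converted positions (25% over all clusters), 14.2% with WT rep 1 limited to as many clusters as WT rep 2 (11.8% over all) and 10.6% by read peaks within 10 nt (9.51% over all). All 66 overlaps paired clusters of the same gene, all were intronic, and 28 (42.4%) had identical borders, against 33.5% of overlapping clusters in general.

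By gene, 23 of the 39 found in both WT libraries had at least 1 overlapping cluster (59.0%, background 43.4%), and 9 had at least 3 (23.1%, background 10.7%). ARID1A had 12 overlapping WT rep 2 clusters, KDM6A 8 and KMT2C 5. CHD1, ARID3B, KDM5A and KMT2A had 4 each, and ARID1B and CHD9 had 3 each. KDM1A, KDM4C, KDM2A, KDM2B, KDM4A and SMARCAD1 were among the 16 genes found in both libraries with no shared site. Of the 216 WT rep 2 clusters that did not overlap, 57 (26.4%, 21.0% to 32.6%) lay within 100 nt of a WT rep 1 cluster, against 18.3% of all non-overlapping clusters, and 138 (63.9%) within 1000 nt, against 49%. Clusters of a gene that holds many lie close together, and the part of cluster density in these shares was not tested.

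**Figure D4:**
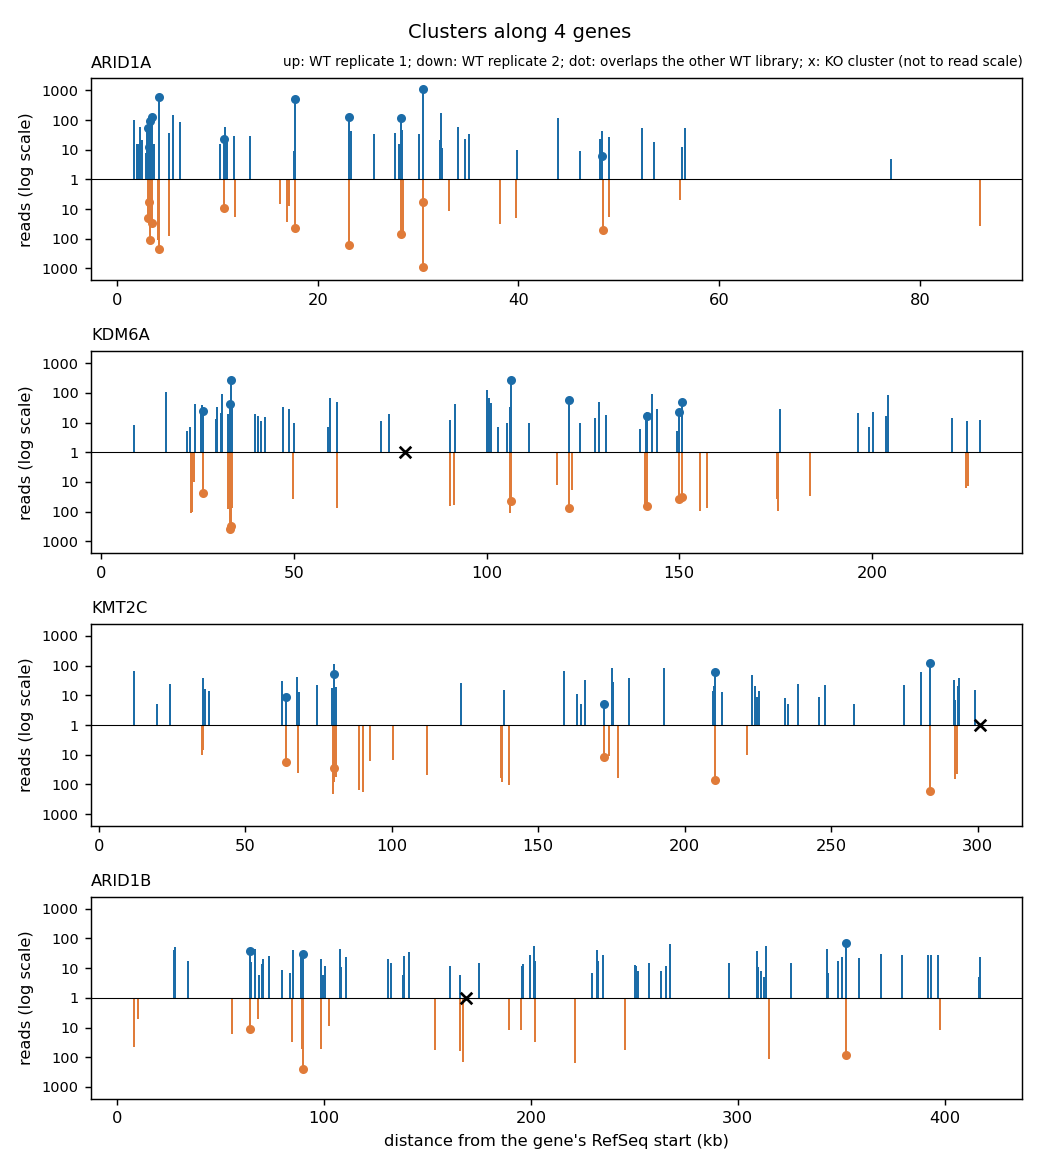
Clusters along ARID1A, KDM6A, KMT2C and ARID1B by distance from the RefSeq gene start (x axis, kb), with reads per cluster on a log scale upwards for WT rep 1 and downwards for WT rep 2; dots mark clusters that overlap the other WT library and crosses KO clusters. The deepest ARID1A clusters of both libraries meet at 30.5 kb, while most clusters of ARID1B in one library have no partner in the other.

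The overlap rose with depth. In WT rep 2 it was 18.7% for clusters of 5 to 19 reads, 22% for 20 to 49, 22.4% for 50 to 99 and 38.1% (25% to 53.2%) for 100 or more, against 12.2%, 20.7%, 20.4% and 30.0% over all clusters. In WT rep 1 it rose from 3.48% through 7.06% and 14.4% to 32.4%, against 3.22%, 5.42%, 12.8% and 30.4%. In every class of both libraries the interval of the chromatin genes held the value over all clusters.

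**Figure D5:**
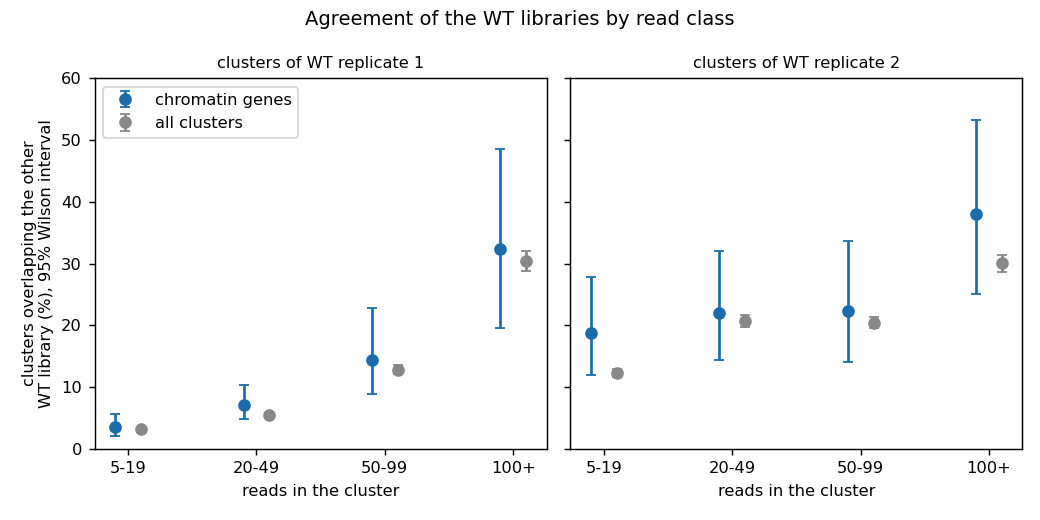
Share of clusters that overlap the other WT library (y axis, percent) by reads in the cluster (x axis), for the chromatin genes (blue) and all clusters (grey), with 95% Wilson intervals; left, clusters of WT rep 1, right, of WT rep 2. Both sets rise with reads, to 32.4% and 38.1% in the chromatin genes at 100 reads or more.

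By the authors' annotation nearly all WT clusters in these genes were intronic: 887 of 905 in WT rep 1 (98.0%, 96.9% to 98.7%) and 277 of 282 in WT rep 2 (98.2%, 95.9% to 99.2%), a mean of 98.1% ± 0.153 (SD, n = 2). Among all clusters in genes the shares were 91.9% and 90.3%, below both intervals. The part of gene length in this difference was not tested. A WT cluster outside introns was found for 15 of the 49 genes (30.6%, background 36.7%), 23 clusters in all, and most lay in 3′UTRs, 14 in WT rep 1 and 5 in WT rep 2. KDM2A stood apart, with 5 of its 16 WT rep 1 clusters and 1 of its 3 in WT rep 2 in the 3′UTR; the deepest of these held 103 and 93 reads and did not overlap. SMARCC1 had 2 clusters in its 3′UTR, ARID2 had 1 in each WT library and ARID1A had 1. CHD2 had the only 5′UTR cluster, of 26 reads in WT rep 1.

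The sequences under the clusters were rich in pyrimidines. C and T made up 68.8% of bases in WT rep 1 and 70.2% in WT rep 2, close to the 68.0% and 68.7% of all clusters. T stood at 41.4% and 43.6%, against 40.1% and 41.8%, and G at 9.85% and 9.61%, against 10.1% and 9.99%. In the 12 KO clusters the share of C and T was 62.7% (57.6% to 67.5%) and that of G 15.0%, against 55.9% and 17.9% over all KO clusters. That interval counts 359 bases as separate draws, which bases of the same cluster are not, so it understates the error. ATCTT or TTCTT was present in the central 25 nt of 293 of 904 clusters in WT rep 1 (32.4%, 29.4% to 35.5%, background 31% of all clusters in windows of the same length) and of 102 of 255 in WT rep 2 (40.0%, 34.2% to 46.1%, background 34.6%). Both intervals include the background. In KO it was present in 1 of 12 (8.33%, background 12.9%). RNase T1, used in the preparation, cuts after G, and 73.6%, 94.7% and 91.7% of the sequences in WT rep 1, WT rep 2 and KO ended in G, against 73.5%, 94.4% and 72.1% over all clusters; the KO share is 11 of 12.

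In the KO library 11 of the 49 genes had a cluster (22.4%, background 5.88%), 12 clusters in all, with no replicate. Of these clusters 9 had 2 converted positions, the minimum in the tables, as had 68.6% of all KO clusters. With at least 3 required in every library, 3 KO clusters in 2 genes were left, 2 in KMT2E and 1 in ARID1B, or 2 of 41 genes (4.88%) against 2.48% of all. KMT2E had 2, of 609 reads in the 3′UTR and 87 reads in an intron. KDM6B, the paralogue of KDM6A, had a 3′UTR cluster of 600 reads, all from 2 distinct sequences. In WT, KDM6B had 1 cluster of 27 reads in WT rep 2 and none in WT rep 1. Clusters of the 49 genes held 37.4 reads per distinct sequence in KO, against 7.26 in WT rep 1 and 17.2 in WT rep 2. Read numbers of KO and WT clusters are therefore not directly comparable. KMT2C had a 3′UTR cluster of 368 reads, of which 4.35% carried a T-to-C change, and KMT2B had a coding cluster of 192 reads. KDM2A, ARID1B, ARID4B, ARID3B, KDM6A, KDM2B and ARID5B each had 1 intronic cluster, of 231, 215, 166, 159, 86, 69 and 60 reads in that order. The KMT2B and KDM6A clusters held 1 distinct sequence each, and those of KDM2A and ARID4B held 2 each. Intronic clusters were 8 of 12 (66.7%, 39.1% to 86.2%), below the WT shares, and all KO clusters in genes stood at 80.2%. The share of WT-bound genes with a KO cluster was larger than the background, but the genes are longer and carry more WT clusters than most, and the part of either in this share was not tested.

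Few clusters overlapped between KO and WT, in these genes as over all clusters. Between the WT libraries, 6% of all WT rep 1 clusters and 19.5% of all WT rep 2 clusters overlapped. Whether the KO sites differ from the WT sites was not tested. No WT rep 2 cluster in these genes overlapped a KO cluster (background 0.0884%), and 1 of 905 WT rep 1 clusters did, in ARID4B (0.110%, background 0.0504%), so that 1 of 12 KO clusters met a WT cluster (8.33%, background 6.53%). The intronic KMT2E cluster of 87 KO reads holds ATCTT. The 3 intronic KO clusters with the most reads are printed for comparison with the WT sites. None of these 3 holds ATCTT or TTCTT, and neither do the printed WT sites of CHD2, SMARCA4 and KMT2E.
KDM2A, chr11:67170636-67170666, plus strand: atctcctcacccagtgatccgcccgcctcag
ARID1B, chr6:156944695-156944726, plus strand: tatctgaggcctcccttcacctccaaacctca
ARID4B, chr1:235241117-235241142, minus strand: ttactacactttcctcaaacatcaag
The ARID4B cluster of 166 KO reads met a WT rep 1 cluster of 47 reads at chr1:235241118-235241151. ARID1A, with 56 and 26 WT clusters, had no KO cluster, and neither had any CHD or SMARC gene. Most genes had none, since a KO cluster was found for 5.88% of all genes with a WT cluster.

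Other chromatin genes, whose names as the authors gave them fall outside the rule, were counted in the same way. They include SETD8, SUV420H1 and SUV420H2, which stand above by their current names KMT5A, KMT5B and KMT5C among the protein-coding genes under the rule. Of a list of 69 such genes, 63 had a WT cluster and 51 of these had one in both WT libraries (81.0%, background 56.9%), with 974 and 322 clusters and a median of 14.5 and 4.23 per 100 kb. In WT rep 1 the most were in GATAD2A, a NuRD subunit, with 54 and 15 clusters, ATRX, a remodeler of heterochromatin, with 53 and 20, JMJD1C, of the KDM3 demethylase family, with 48 and 18, and the H3 methyltransferase genes EHMT1 with 47 and 16 and EZH2 with 45 and 13. SETD2, which methylates histone H3 along transcribed genes, had 34 and 25 clusters with 1254 and 1742 reads, the most of the list in WT rep 2. KO clusters were found in 5 of the 63 genes with a WT cluster, beside 5.88% of all genes with a WT cluster. No cluster was found for EZH1, EHMT2, MEN1, SETMAR, ACTL6B or BCL7A.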

How the data were processed

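Cluster lists came from 2 WT libraries and 1 KO library of HAP1 cells. The submitters' processing notes name cutadapt 1.8.3, Bowtie 1.1.2, hg38 and GRCh38.p5 without their roles; the cluster caller and its filters are not given in the sources used here. The authors called clusters per library and deposited whole-number counts of reads, distinct sequences and T-to-C events, not normalised, and, per the file headers, the fraction of each cluster's reads that show the T-to-C change. Each cluster kept the single gene and class the authors gave it, so overlapping genes are uncertain. The tables hold only reads in clusters, and the full depth is unknown.

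Genes, classes and overlaps (at least 1 nt, same strand) were counted in Python 3.11.15 with pandas 2.3.3, numpy 2.4.6, scipy 1.17.1 and matplotlib 3.10.9; the overlap count was tested on simulated data. Gene lengths are RefSeq intervals of GRCh38.p14, which matched 49 of 49 genes by the rule and 9160 of 9754 names, and all clusters of the 49 genes lay inside them. Sequences are those of the deposited clusters. Wilson 95% intervals cover counting error only: reads carry no molecular identifiers in the tables, and clusters of a gene share their source. The WT libraries are called independent replicates by the design, which names no separate cultures.

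The genes named are the 4 per family with the most reads, the 5 densest, all with a KO cluster, those with at least 3 clusters in 1 WT library and none in the other, the 5 with most clusters outside introns, those of the 6 deepest shared sites, and the 5 highest and lowest read-share ratios; further genes were named as remaining members after their values were seen. Members, lists and role groups were chosen with earlier results of these data known. Alternatives tried were clusters of at least 10 reads or at least 3 converted positions, WT rep 1 limited to the cluster number of WT rep 2, other overlap rules and windows, reads in place of clusters, and leaving out each WT library.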

Additional observations from a re-analysis of the deposited data

Results flagged for a closer look

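Some signal lay outside the main measurement, on the strand opposite to the chromatin genes, where the KO library had 0 clusters. Inside the RefSeq intervals of the 49 genes WT rep 1 had 5 such clusters, with 38 reads in all, in KDM1B, KDM4A, KMT2E, SMARCC1 and SMARCC2. WT rep 2 had 1, of 13 reads, in KDM6A. These were 0.549% and 0.353% of the clusters on either strand counted with those of the genes themselves, and no gene had one in both WT libraries. The KO library had 12 clusters in these genes in all.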

How the results depend on the processing

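Over the alternatives that gave a value, 25 of 36 values of the 7 main results stayed within their spread or interval (for counts, within 1.5 times), and 11 moved beyond it. For shares and density the spread was the SD of the 2 WT libraries, so leaving out 1 library could not move a share beyond it. Density had a wide SD of 7.74, and 4.49 in place of 9.38 clusters per 100 kb, with 3 converted positions, counted as within it. The share of clusters in chromatin genes had an SD of 0.000704, and 1.03% in place of 1.04% counted as beyond it. The tally is therefore no measure of how stable the results are. A minimum of 3 converted positions had the widest effect. The share of clusters in chromatin genes was then 1.20% in place of 1.04%. The overlap of WT rep 2 with WT rep 1 was 38.8% in place of 23.4% (25% in place of 19.5% over all clusters). The intronic share was 97.7% (85.5% in place of 83.6% over all clusters). The share with ATCTT or TTCTT was 45.4% in place of 36.2% (39.3% in place of 32.8% over all clusters), and 3 of 12 KO clusters were left. With WT rep 1 limited to its deepest clusters, the gene share was 1.06% and the overlap 14.2% (11.8% over all clusters). Read peaks within 10 nt gave an overlap of 10.6% (9.51% over all), whole clusters a word share of 44.9% (41.4% over all), reads in place of clusters a gene share of 1.05%, and a minimum of 10 reads 1.03%. Chromatin genes in both WT libraries numbered 38, 29 and 35 with a minimum of 10 reads, of 3 converted positions and with WT rep 1 limited. The matching shares over all genes were not taken, so whether the excess over the background holds under these settings was not tested. Leaving out a WT library gave gene shares of 1.04% to 1.04%, intronic shares of 98.0% to 98.2%, word shares of 32.4% to 40.0% and a median density of 3.87 to 14.8 clusters per 100 kb; it gives no value for genes in both libraries or for overlap, and leaves the KO count as it is. The cluster number per named gene rests on which WT library is used: it moved by over 1.5 times for 27 of 31 genes without WT rep 1 and for 18 without WT rep 2. No paired analysis was possible because the KO label carries no replicate number and no result comes from a test. The cause of these changes was not tested, except that stricter minimums leave fewer clusters.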
